A study of Mus musculus with 4 samples.

Results

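The anaphase promoting complex, also called the cyclosome (APC/C), is described here through 10 genes in cultured mouse CD4+ T cells: the activators Cdc20 and Fzr1, the inhibitor Fbxo5, the ubiquitin-conjugating (E2) enzymes Ube2c and Ube2s, the securin gene Pttg1, the separase gene Espl1, and the subunits Cdc27, Cdc23 and Anapc5. The members were chosen as the probe sets whose platform annotation gives a single gene symbol among these 10 genes, of 18193 genes named in this way. They were 25 of 45037 probe sets, of which 12 belong to the 7 genes taken as periodic and 13 to the 3 genes of constitutive subunits. A level filter, described below, left 11 and 12 of these for testing, and the 2 dim probe sets left out are given by their values.

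Naive CD4+ (helper) T cells were isolated from mouse spleen and lymph nodes. Every culture lasted 7 days in medium with 10% serum and 2.5 ug/ml of the lectin concanavalin A, which drives T cells to divide. The progesterone group, with 2 arrays, received the steroid hormone at 2000 ng/ml plus the human cytokine TGFb1 at 1 ng/ml, and the TGFb1 group, also with 2 arrays, received the same cytokine at 1 ng/ml without the hormone. The labels do not give the age, strain or sex of the mice, or the origin of the replicates, which need not be separate cultures or mice. The p-values therefore rest on a spread between arrays that may be technical.

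The APC/C is a ubiquitin ligase that ends mitosis by marking proteins for destruction by the proteasome. Its core subunits are held at much the same level through the cell cycle, and its timing comes from what binds to them: CDC20 activates it in mitosis, FZR1 (also called CDH1) from late mitosis into G1, EMI1 (the product of Fbxo5) blocks it in S and G2 phase, UBE2C starts ubiquitin chains on its substrates and UBE2S extends them. Its best known target in mitosis is securin, whose loss frees separase to cut the cohesin that holds sister chromatids together. In activated T cells, which divide fast, transcripts of several of these regulators peak in G2 phase and mitosis.

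Promoter sequences of 9 of the 10 genes were found in RefSeq's table of mouse build GRCm38.p6, each covering 250 bases before and 50 bases after the transcript start. Many genes of G2 phase and mitosis carry a CCAAT box, read by the factor NF-Y, and a cell cycle homology region, TTTGAA or TTCGAA, close to the start. These letters, 3 motifs in all, were searched on both strands; TTCGAA reads the same on either. The 150 bases before the start are shown for the activator and E2 enzyme with the largest differences, for separase, for securin, in which none of the 3 motifs was found, and for 2 subunits as a contrast. Capitals mark the motifs, with ATTGG and TTCAAA standing for CCAAT and TTTGAA on the opposite strand.
Cdc20, chr4:118437344-118437493, minus strand: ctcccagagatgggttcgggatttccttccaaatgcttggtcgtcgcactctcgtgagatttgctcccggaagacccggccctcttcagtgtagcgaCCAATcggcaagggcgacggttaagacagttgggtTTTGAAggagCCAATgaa
Ube2c, chr2:164769779-164769928, plus strand: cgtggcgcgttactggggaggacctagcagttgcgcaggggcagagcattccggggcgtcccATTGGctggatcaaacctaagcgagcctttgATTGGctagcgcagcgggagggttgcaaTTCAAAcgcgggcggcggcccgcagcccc
Espl1, chr15:102296143-102296292, plus strand: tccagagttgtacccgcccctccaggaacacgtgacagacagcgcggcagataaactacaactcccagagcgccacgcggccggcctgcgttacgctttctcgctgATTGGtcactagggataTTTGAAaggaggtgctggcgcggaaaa
Pttg1, chr11:43425982-43426131, minus strand: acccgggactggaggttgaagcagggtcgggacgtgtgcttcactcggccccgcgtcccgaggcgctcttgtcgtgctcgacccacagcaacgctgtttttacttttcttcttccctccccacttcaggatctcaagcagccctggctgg
Cdc27, chr11:104550621-104550770, minus strand: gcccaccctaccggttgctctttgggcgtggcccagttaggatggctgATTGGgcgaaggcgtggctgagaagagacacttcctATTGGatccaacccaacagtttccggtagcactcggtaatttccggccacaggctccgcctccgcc
Anapc5, chr5:122821343-122821492, minus strand: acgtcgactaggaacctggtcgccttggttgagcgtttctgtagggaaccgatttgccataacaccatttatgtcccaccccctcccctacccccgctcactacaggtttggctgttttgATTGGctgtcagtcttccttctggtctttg

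In these promoters a TTTGAA lay at position -18 from the start in Cdc20, -29 in Ube2c and -27 in Espl1, with a CCAAT upstream of it at -53, -57 and -44. Fbxo5 had a TTTGAA just after its start, beyond the bases shown, and Ube2s a TTCGAA at -162. Of the 7 periodic genes, 5 held TTTGAA or TTCGAA, and 4 held one of these together with CCAAT. Of the 2 subunit genes with a sequence, both held CCAAT and none held TTTGAA or TTCGAA. Over 32851 RefSeq promoters of the same length, 19.2% held TTTGAA or TTCGAA, 37.4% held CCAAT and 7.52% held both kinds. A match describes letters in a window and does not show that a factor binds there.

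The arrays carry a few facts that bear on all values below. The trimmed mean signal was 108.3 to 155.4, with progesterone replicate 2 the lowest, so the arrays were quantile normalised, and differences were taken after adding 16 to each signal and taking log2, so that changes of dim probe sets come out too small. Probe sets with a mean above the median of all, 22518 in number, entered 1 fit with limma's moderated test. Sex-linked genes separated the groups as well. Xist, the RNA of the inactive X chromosome, had deposited signals of 1390 and 825 in the progesterone arrays and 9.52 and 9.70 in the TGFb1 arrays. The 3 tested Y-linked genes were near 0 in the progesterone arrays only. Eif2s3y was at 4.25 and 0.492 against 689 and 727 in the TGFb1 arrays. Kdm5d was at 0.202 and 4.04 against 261 and 240, and Uty at 1.42 and 3.15 against 150 and 174. This is the pattern of female cells in the progesterone group and male cells in the TGFb1 group. The treatment and the sex of the mice cannot be told apart. The T cell markers tested numbered 6, with none passing the test and a median log2 difference of 0.07 after normalisation. Their summed signal was 16908 and 21490 in the progesterone arrays and 24029 to 25924 in the TGFb1 arrays. This sum and those of the other markers are of deposited signals, without normalisation. Myeloid markers summed to 747 and 825 in the progesterone arrays and 158 and 347 in the TGFb1 arrays, and Lyz2 alone of the 4 tested passed. Lyz2 made up most of the progesterone sums, at 588 and 676, against 53.5 and 189 in the TGFb1 arrays. The other tested genes did not share a direction: Adgre1 was at 0.57, Csf1r at 0.17 and Itgam at -0.81 on the log2 scale. Itgam was dim, at 21.6 and 13.6 in the progesterone arrays and 71.2 and 19.4 in the TGFb1 arrays. Cd14, under the level filter and not tested, was higher in the progesterone arrays, at 36.5 and 25.9 against 14.1 and 3.08. B cell, CD8 T cell and erythroid markers summed to at most 174 in every array, and NK cell markers to 225 and 290 in the progesterone arrays and 456 and 518 in the TGFb1 arrays, with the 1 tested gene of that list lower. Mast cell markers summed to 1061 and 1072 in the progesterone arrays and to 1007 and 1594 in the TGFb1 arrays, with 1 of 3 tested genes higher. The part of these cells in the results was not tested.

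The question the design puts is what progesterone does to transcripts when TGFb1 is present in both groups. The groups also differ in the sex pattern above, so fell and rose below describe the progesterone arrays against the TGFb1 arrays. All 11 tested probe sets of the activators, the inhibitor, the E2 enzymes, securin and separase fell with progesterone, and none of the 12 tested probe sets of the subunits passed the test. The 11 include Cdc20 1439394_x_at, which passed the level filter only through its TGFb1 arrays, so its direction adds no support. Over all tested probe sets, 3.70% were called lower and 2.39% higher. The median log2 difference, progesterone plus TGFb1 minus TGFb1 alone, was -1.94 over the 7 periodic genes and -0.23 over the 3 subunit genes, with each gene represented by its brightest probe set, and it was 0.03 over all probe sets. The difference between these medians, periodic minus subunit, was -1.72 on the log2 scale. It is a description with no test, since the members were chosen with earlier results of these data known. In addition, 2 arrays against 2 allow only 3 splits. RNA came from whole cultures, in which fewer dividing cells and less RNA per cell cannot be told apart.

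**Figure D1:**
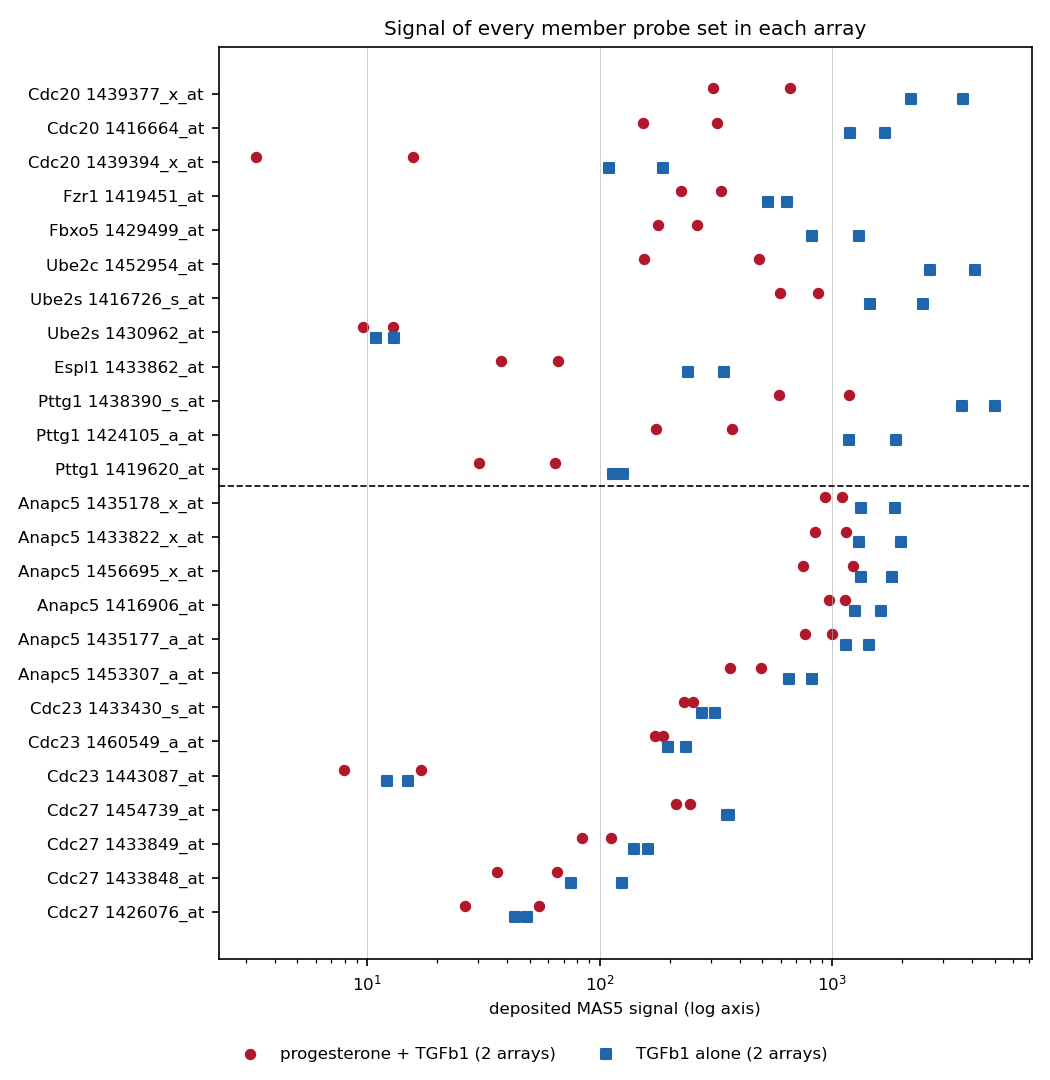
Deposited MAS5 signal of all 25 member probe sets (rows; log axis) in the 2 progesterone plus TGFb1 arrays (red circles, upper in each row) and the 2 arrays with TGFb1 alone (blue squares). Above the dashed line, in the periodic group, red and blue are apart in every row but the dim Ube2s probe set 1430962_at, and below it, in the subunits, the gaps are mostly smaller, although 11 of the 12 tested rows also have both red points below both blue ones and the gap of Cdc27 1433848_at is near that of Fzr1.

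Cdc20, the mitotic activator that brings substrates to the complex, was measured by 3 probe sets, and all of them fell. The brightest, 1439377_x_at, had signals of 654 and 307 in the progesterone arrays and 3630 and 2172 in the TGFb1 arrays. The groups were far apart, with the higher progesterone array below the lower TGFb1 array. The log2 difference was -2.22 ± 0.25 (SE, n = 2 per group), with an adjusted p = 0.00306 by limma, a ratio of 0.215. Probe set 1416664_at, whose signals were 320 and 154 in the progesterone arrays and 1677 and 1187 in the TGFb1 arrays, fell by 2.26 on the log2 scale (adjusted p = 0.00228 by limma). Probe set 1439394_x_at reached only 15.8 and 3.31 in the progesterone arrays, against 186 and 110 in the TGFb1 arrays, and it fell. It passed the level filter only through its TGFb1 arrays, so its direction adds no support. Its progesterone signals lay under the level filter's mean of 24.8, so the size of its log2 difference was set largely by the number added to the signals: it was -2.67 with 16 added, -4.36 with 0 and -1.47 with 64. The 2 brighter probe sets gave one direction and much the same size. The ending _x_at marks sets that may also bind other transcripts.

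Fzr1, the activator that takes over after anaphase and holds cells in G1, had the smallest fall of the 11. Its single probe set gave signals of 332 and 223 in the progesterone arrays and 637 and 527 in the TGFb1 arrays, which did not overlap. The log2 difference was -0.73 ± 0.14 (SE, n = 2 per group; adjusted p = 0.0216 by limma), a ratio of 0.601. The call was lost without TGFb1 replicate 1 (limma adjusted p = 0.0516) and without either progesterone array (limma adjusted p = 0.0832 and 0.226 without replicate 1 and 2), while the difference stayed between -0.85 and -0.63 when any array was left out. Both activators fell, and the intervals of their differences did not meet: the 95% interval ran from -2.80 to -1.63 for the brightest Cdc20 probe set and from -1.05 to -0.41 for Fzr1.

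Fbxo5 encodes EMI1, which keeps the complex off while DNA is copied and so lets cyclins build up. Its probe set read 263 and 178 in the progesterone arrays and 1300 and 817 in the TGFb1 arrays. It fell, with a log2 difference of -1.85 ± 0.19 (SE, n = 2 per group; adjusted p = 0.00228 by limma), a ratio of 0.278. The inhibitor and the activator Cdc20 were therefore lower in the same arrays.

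Ube2c, the E2 enzyme that places the first ubiquitins on APC/C substrates, had the largest fall of all members with 16 or 64 added to the signals; with 0 added, it was at -3.25 and the dim Cdc20 probe set 1439394_x_at was further from 0. Its signals were 482 and 154 in the progesterone arrays and 4098 and 2619 in the TGFb1 arrays. Only 10 of the 22518 tested probe sets had a more negative difference. The log2 difference was -3.18 ± 0.36 (SE, n = 2 per group; adjusted p = 0.00306 by limma), a ratio of 0.111, with a 95% interval from -4.01 to -2.34. Its progesterone arrays also differed most from each other, by -1.28 on the log2 scale (replicate 2 minus replicate 1), and with a robust variance model the call was lost (limma adjusted p = 0.0829).

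Ube2s, the E2 enzyme that lengthens the chains that UBE2C begins, fell by less. Probe set 1416726_s_at had signals of 867 and 593 in the progesterone arrays and 2453 and 1445 in the TGFb1 arrays. The log2 difference was -0.98 ± 0.18 (SE, n = 2 per group; adjusted p = 0.0215 by limma), a ratio of 0.506, and its 95% interval, -1.41 to -0.55, did not meet that of Ube2c. Without progesterone replicate 1 the limma adjusted p was 0.0944 and without replicate 2 it was 0.186, so the call rested on both. A second probe set, 1430962_at, was dim, at 12.9 and 9.63 in the progesterone arrays and 13.0 and 10.9 in the TGFb1 arrays, and it was not tested. With no level filter it had a log2 difference of -0.15 and a limma adjusted p = 0.829.

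Pttg1 encodes securin, the APC/C substrate that holds separase in check until anaphase, and all 3 of its probe sets fell. The brightest, 1438390_s_at, read 1183 and 590 in the progesterone arrays and 5000.2 and 3614 in the TGFb1 arrays. Its log2 difference was -1.94 ± 0.19 (SE, n = 2 per group; adjusted p = 0.00228 by limma), a ratio of 0.260. Probe set 1424105_a_at was at 370 and 174 in the progesterone arrays and 1873 and 1173 in the TGFb1 arrays, with a log2 difference of -2.14. Probe set 1419620_at was dimmer, at 63.997 and 30.2 in the progesterone arrays and 126 and 114 in the TGFb1 arrays, and differed by -1.11 ± 0.24 (limma adjusted p = 0.0360). That last call was lost without TGFb1 replicate 1, TGFb1 replicate 2 or progesterone replicate 2 (limma adjusted p = 0.0885, 0.0594 and 0.193), while the calls of the other Pttg1 probe sets held when any array was left out.

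Espl1 encodes separase, the protease that securin restrains and that cuts cohesin at anaphase. Its probe set read 65.8 and 37.8 in the progesterone arrays and 343 and 240 in the TGFb1 arrays. It fell, with a log2 difference of -2.06 ± 0.21 (SE, n = 2 per group; adjusted p = 0.00235 by limma), a ratio of 0.239. Securin and separase were thus lower in the same arrays. By the brightest securin probe set the amount was alike, and the 95% intervals (-2.40 to -1.49 and -2.56 to -1.57) overlapped for most of their length. The dimmest securin probe set, 1419620_at, fell by less, with an interval from -1.67 to -0.56.

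**Figure D2:**
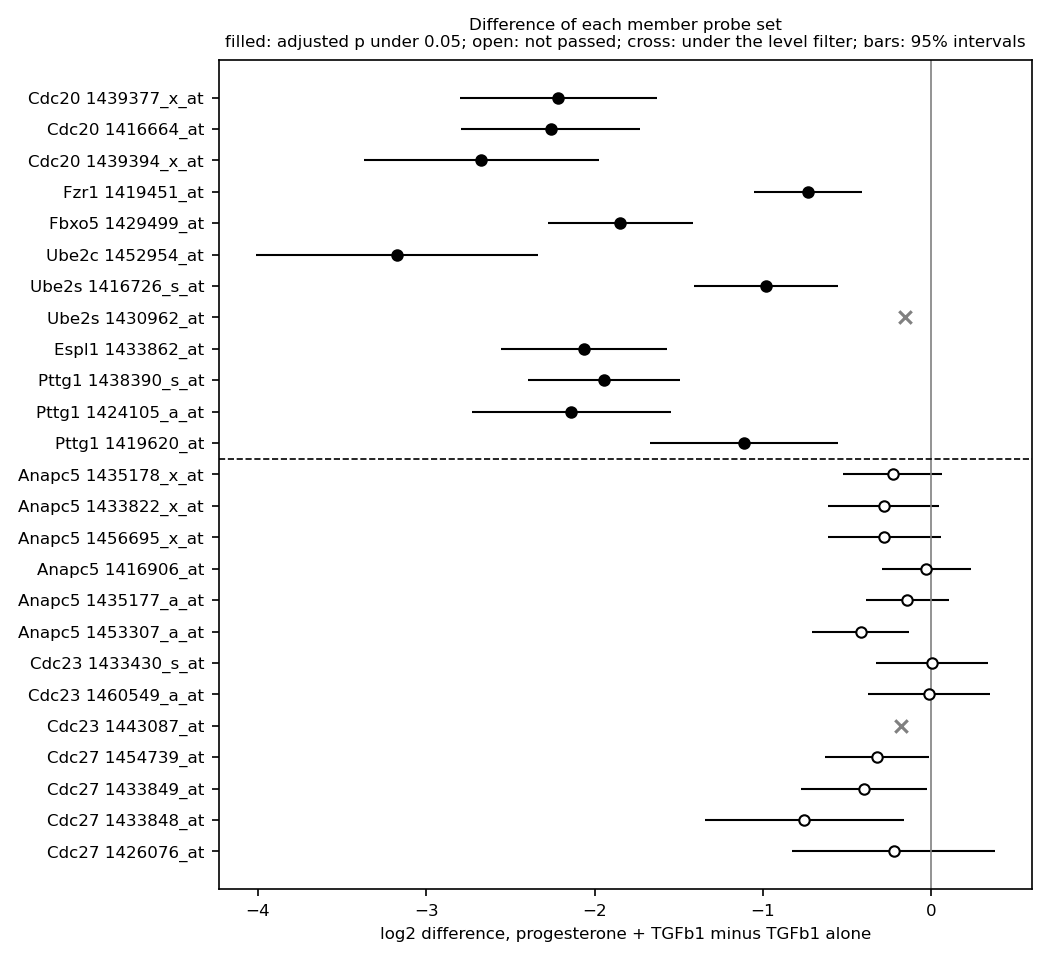
Log2 difference, progesterone plus TGFb1 minus TGFb1 alone, for each member probe set, with 95% intervals of the limma fit (n = 2 per group). Filled points passed the test, open points did not, and crosses are the 2 dim probe sets left untested. The 11 filled points lie between -3.18 and -0.73 and the 12 open points between -0.75 and 0.00.

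The subunits gave small differences. Anapc5, a scaffold subunit of the platform that joins the catalytic core to the arm that binds activators, had 6 probe sets with log2 differences from -0.42 to -0.03. The brightest, 1435178_x_at, read 1100 and 931 in the progesterone arrays and 1854 and 1330 in the TGFb1 arrays, where the trimmed mean was also higher. After normalisation the groups overlapped, and the log2 difference was -0.23 ± 0.13 (SE, n = 2 per group; adjusted p = 0.346 by limma), with a 95% interval from -0.52 to 0.07. That interval holds 0 and also a fall of about the size seen for Cdc27. The furthest from 0 was 1453307_a_at, at 495 and 363 in the progesterone arrays and 814 and 648 in the TGFb1 arrays, with a log2 difference of -0.42 (limma adjusted p = 0.103).

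Cdc23 and Cdc27 encode repeat proteins of the arm to which the activators bind. For Cdc23, probe set 1433430_s_at read 251 and 229 in the progesterone arrays and 313 and 276 in the TGFb1 arrays. Its log2 difference was 0.00 ± 0.14 (SE, n = 2 per group; 95% interval -0.33 to 0.33), and that of 1460549_a_at was -0.01 ± 0.16. Its other probe set, 1443087_at, was dim, at 7.94 and 17.0 in the progesterone arrays and 12.2 and 15.0 in the TGFb1 arrays, and was not tested.

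Cdc27 was the subunit gene furthest from no change. Its brightest probe set, 1454739_at, read 243 and 213 in the progesterone arrays and 360 and 351 in the TGFb1 arrays. The groups did not overlap after normalisation, yet the log2 difference of -0.33 ± 0.13 (SE, n = 2 per group) had an adjusted p = 0.211 by limma. The others were at -0.40 (1433849_at), -0.75 (1433848_at) and -0.22 (1426076_at), and 3 of the 4 had an interval wholly below 0 before adjustment for many tests. Probe set 1433848_at, with signals of 65.3 and 36.2 in the progesterone arrays and 124 and 75.5 in the TGFb1 arrays, differed by as much as Fzr1 did but with more spread (SE 0.25; limma adjusted p = 0.140). The split between subunits and regulators was therefore one of size, with these 2 probe sets meeting at its edge, and 9 of the 11 periodic probe sets but none of the 12 subunit ones differed by 2-fold or more. The 9 include the dim Cdc20 1439394_x_at, which adds no support.

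Scaling moved the subunits more than the periodic genes. With the values as deposited, the median over all tested probe sets was -0.16, that of the 3 subunit genes -0.61 and that of the 7 periodic genes -2.19. With each array scaled to the same trimmed mean, the medians were 0.10 for all probe sets, -0.32 for the subunit genes and -1.94 for the periodic genes. Relative to the median of all probe sets, the subunit genes were at -0.26 after quantile normalisation, -0.45 as deposited and -0.43 with trimmed mean scaling, and the periodic genes at -1.97, -2.03 and -2.05. No subunit gene passed by its brightest probe set in any of these. Dimmer ones did: Cdc27 1433848_at with the values as deposited (limma adjusted p = 0.0428), and Anapc5 1453307_a_at with centring on the median (limma adjusted p = 0.0454). Without TGFb1 replicate 2, Anapc5 1453307_a_at and 1433822_x_at passed (limma adjusted p = 0.0463 and 0.0209). The share of lower among all calls was 60.7% after quantile normalisation and 82.0% with the values as deposited.

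Replicates of a group differed from each other along the same axis. In the periodic group, replicate 2 lay below replicate 1 in 11 of 11 probe sets among the progesterone arrays (median -0.63 on the normalised log2 scale) and in 11 of 11 among the TGFb1 arrays (median -0.50). Among all tested probe sets this held for 49.9% and 49.0%. In the subunits it held for 7 of 12 probe sets in the progesterone arrays (median -0.04) and 11 of 12 in the TGFb1 arrays (median -0.21). Even so, in all 11 periodic probe sets both progesterone arrays lay below both TGFb1 arrays, as did 24.0% of all tested probe sets (29.3% had the opposite order), and the same order was found in 6 of the 12 subunit probe sets. Among the 11, Cdc20 1439394_x_at passed the level filter only through its TGFb1 arrays and adds no support. In the signals as deposited, where the progesterone arrays were dimmer, 11 of the 11 and 11 of the 12 had this order, against 37.9% of all tested probe sets.

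**Figure D3:**
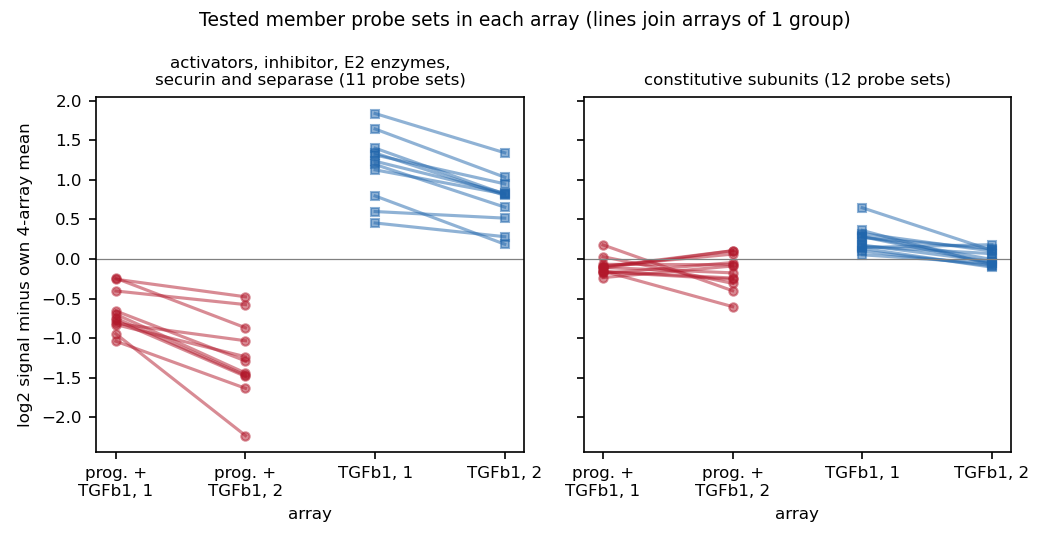
Normalised log2 signal of each tested member probe set minus its own mean over the 4 arrays (progesterone plus TGFb1 replicates 1 and 2 in red, TGFb1 alone replicates 1 and 2 in blue; lines join arrays of 1 group). All 11 periodic probe sets (left) lie below their mean in both red arrays and above it in both blue ones, and the 12 subunit probe sets (right) mostly stay nearer to 0, except that Cdc27 1433848_at spreads further than Fzr1.

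In the rest of the pathway each gene was represented by its brightest tested probe set. Over all 10512 genes so represented, 4.75% were called lower and 2.67% higher, with a median log2 difference of 0.02. None of the 11 other APC/C subunit genes passed (median -0.14, range -0.45 to 0.22). Among them the small subunit gene Anapc15 was at -0.45 ± 0.20 (limma adjusted p = 0.241), Anapc16 at -0.29 and the platform subunit gene Anapc4 at 0.22. Among genes for other APC/C substrates, 17 of 18 fell (median -2.42), such as the centrosomal kinase gene Nek2 (-2.44), the ribonucleotide reductase gene Rrm2 (-2.64) and the chromosomal passenger kinase gene Aurkb (-2.66), and the exception was Skp2, at -0.22. With no level filter, and likewise with no intensity trend in the fit, 14 of the 18 passed. The median of this list ran from -2.80 to -2.06 with an array left out. Of 6 genes of the mitotic checkpoint, which holds CDC20 inactive until every chromosome is attached, 4 were called lower: Mad2l1 (-2.01), Bub1 (-3.26), Bub1b (-2.82) and Ttk (-2.85). The median of the 6 was -2.42. Mad1l1 (-1.41) and Bub3 (-0.36) were also lower but did not pass (limma adjusted p = 0.0752 and 0.103). Mad1l1 was dim, at 35.4 and 6.81 in the progesterone arrays and 97.6 and 52.2 in the TGFb1 arrays. It passed the level filter largely through its TGFb1 arrays, so its direction adds no support. Among 8 tested genes for other APC/C regulators (median -0.11), the mitotic kinase gene Mastl alone fell (-1.29), and it lost its call without TGFb1 replicate 1 and without either progesterone array.

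Ube2c and Ube2s also differed from most of their own family. Of 27 other tested genes for ubiquitin-conjugating enzymes, 1 fell and 2 rose (median -0.02). The one that fell was Ube2t, the E2 enzyme of the Fanconi anaemia pathway, with signals of 103 and 67.4 in the progesterone arrays and 552 and 316 in the TGFb1 arrays and a log2 difference of -1.93 ± 0.23 (limma adjusted p = 0.00345). Those that rose were Ube2f (0.53) and Ube2e2 (0.88), and neither passed without either progesterone array. Of 15 tested genes for cullin ligases, the other large class of cell cycle ubiquitin ligases, none passed, with a median of 0.02 after quantile normalisation and -0.32 with the values as deposited.

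Markers of proliferation moved with the periodic genes. Of 6 tested, 4 fell (median -1.22), among them Mki67, which encodes the Ki-67 antigen, with signals of 431 and 193 in the progesterone arrays and 3131 and 1911 in the TGFb1 arrays. Pcna (-0.61) and Mcm2 (-0.07) did not pass. How much of the members' difference goes with the share of dividing cells was not tested.

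**Figure D4:**
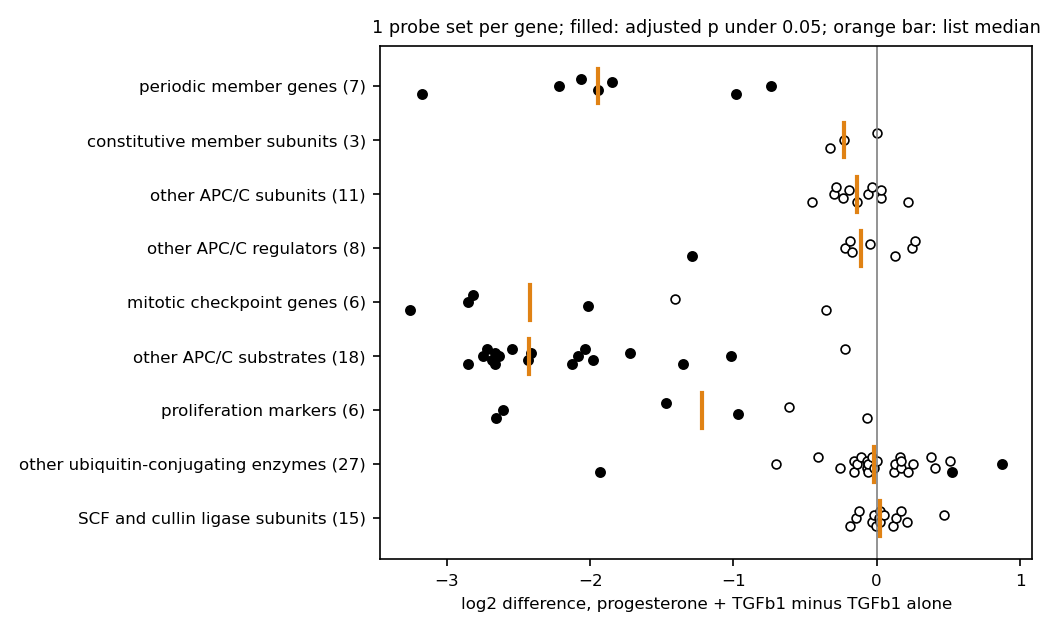
Log2 difference, progesterone plus TGFb1 minus TGFb1 alone, for 1 probe set per gene (points; filled where the limma test was passed) in the member genes and in lists of related genes, with the number of tested genes in parentheses and the list median as an orange bar. Periodic members, substrates and checkpoint genes have medians from -2.42 to -1.94, and subunit, cullin ligase and other E2 genes have medians from -0.23 to 0.02.

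The patterns over the 4 arrays were compared by the root mean square distance between log2 values, each probe set's own mean removed. Nearest to the brightest Cdc20 probe set among genes that are no members were the mitotic kinesin gene Kif2c (0.0343), the spindle and hyaluronan binding gene Hmmr (0.0410) and the midzone protein gene Prc1 (0.0480). The members nearest to it by other probe sets were Pttg1 1424105_a_at (0.0425) and Cdc20 1416664_at (0.0797). Nearest to the brightest Cdc27 probe set were Ogdh (0.00325), Larp7 (0.00433) and Uhrf2 (0.0120), none of which passed the test. With only 4 arrays a small difference has many neighbours: 1595 probe sets, itself included, lay nearer to the Cdc27 probe set than Cdc27's own 1433849_at did, against 11 for Cdc20 and 1416664_at.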

How the data were processed

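Each of the 4 arrays carried 45101 probe sets. The deposited values are linear signal intensity; the submitters' processing notes name MAS5, without a version, and scaling, detection calls and genome build are not given in the sources used here. The number of arrays limits the precision. Control probe sets (64) were left out, and arrays were quantile normalised because trimmed means (2% off each end) differed by up to 1.43-fold. Values were taken as log2(signal + 16), and 22518 probe sets with a mean above the median of all (24.8) entered the fit (R 4.3.3, limma 3.58.1; lmFit, eBayes with an intensity trend, no covariates), with Benjamini-Hochberg adjustment over all of them and a threshold of 0.05. Fits had 2 residual degrees of freedom. Symbols came from the platform annotation, updated by Entrez identifier through a RefSeq table of GRCm38.p6, which matched 34741 of the 34945 probe sets with 1 gene; 932 had several and 9160 none. Named are all members' probe sets, up to 3 genes per related list by moderated statistic and the 3 nearest patterns. Skp2, Ttk, Mad1l1, Bub3, Pcna, Mcm2, Lyz2, Adgre1, Csf1r, Itgam, Cd14 and Uty were added after their values were seen. Members and lists were chosen with earlier results of these data known. The fit was tested on simulated data, where 14.9% of 1.5-fold, 68.7% of 2-fold and 100% of 4-fold changes were recovered. Of the calls there, 6.15% were false. A probe set that did not pass may therefore still differ, by a small amount or by 2-fold.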

Additional observations from a re-analysis of the deposited data

How the results depend on the processing

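The fit was repeated with a pseudocount of 0 or 64, unnormalised signals, trimmed mean scaling, centring on the median, no level filter, a filter keeping the upper 25%, no intensity trend, a robust eBayes, leaving out _x_at and _s_at probe sets, 1 probe set per gene, the replicate number as a block, and leaving out each array. Of 342 results for single member probe sets under these, 308 kept their direction and side of the threshold, 15 fell short of it, 7 passed it and 12 changed sign, all 12 in subunit probe sets that never passed. The count of members that fell was 11 and ranged from 8 to 12 with an array left out. It was 7 without _x_at and _s_at probe sets and 7 with 1 probe set per gene, where fewer were tested. Fzr1, Ube2s 1416726_s_at and Pttg1 1419620_at were also lost with no level filter and with no intensity trend. Over all probe sets 1373 changed, and 534 did with no level filter, 470 without a trend, 873 with 1 probe set per gene and 328 to 1702 with an array left out (328 without progesterone replicate 2 and 555 without progesterone replicate 1; the lone array is assumed to vary like the other group). With the replicate block 3100 changed and 14 members fell, among them 3 subunit probe sets that did not pass without it: Cdc27 1433848_at, Anapc5 1453307_a_at and Anapc5 1456695_x_at (limma adjusted p = 0.0251, 0.0188 and 0.0467). However, the deviations of same-numbered arrays correlated at only 0.17, and 2 pairs do not settle whether the numbers pair the arrays. The cause of these changes was not tested. The periodic minus subunit difference, -1.72, ran from -2.10 to -1.46 with an array left out. Sign changes of Cdc23 1433430_s_at (0.00) were -0.28 as deposited and -0.0943 with centring, with -0.0996 to 0.11 when an array was left out. Cdc23 1460549_a_at (-0.01) was at 0.0340 with trimmed mean scaling and -0.12 to 0.0984 with an array left out, Cdc27 1426076_at at 0.0335 with that scaling, 0.0105 with centring and -0.52 to 0.0664 with an array left out, and Anapc5 1416906_at at -0.15 to 0.0898 with an array left out.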
